A study of Mus musculus with 31 samples.

Results

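Metabotropic glutamate receptors are the G protein-coupled receptors through which glutamate adjusts neuronal excitability and transmitter release. Of this family, 6 genes were examined among the 48709 genes of the deposited tables: Grm5 of group I, Grm2 and Grm3 of group II, and Grm4, Grm7 and Grm8 of group III. They were picked as a family by their gene symbols and not by their values, and 6 of 6 were among the 17428 genes with enough reads to be tested. Grm6 of group III is given where it bears on the balance of the groups, and group I is represented by Grm5.

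Group I receptors sit mainly on dendrites, couple to Gq and phospholipase C, release calcium from internal stores and bind Homer scaffold proteins. Group II and group III receptors couple to Gi/o, lower cyclic AMP and mostly restrain transmitter release from axon terminals, while Grm3 is also made by astrocytes. Group I activity drives translation of messages held by FMRP and its partner CYFIP1, which represses initiation through eIF4E, and in the amygdala group I receptors take part in fear learning.

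RNA came from the basolateral amygdala (BLA) of 31 mice and was sequenced by QuantSeq, which reads the 3′ end of polyadenylated transcripts. The CYFIP1 OE mice carried a human CYFIP1 bacterial artificial chromosome placed in C57BL/6N mice by pronuclear injection, and founders were bred to C57BL/6N to give the lines. Line 1 gave 8 control mice (WT) and 7 CYFIP1 OE mice, and line 3, as the labels number it, gave 8 of each. The WT mice were 8 females and 8 males aged 58 to 61 days, and the CYFIP1 OE mice 8 females and 7 males aged 58 to 77 days, with all 4 mice of 77 days being CYFIP1 OE mice of line 1. Left and right BLA, taken with a 1 mm punch, were pooled in each mouse, so 1 mouse was 1 replicate. Of the 8 WT mice of line 1, 7 share a prefix of their sample names, while the prefixes that hold both genotypes cover 16 mice of line 3 and only 2 of line 1, so in line 1 the genotype and whatever the prefix marks can hardly be told apart.

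Between 5286708 and 8685308 reads per mouse were assigned to genes. The mouse gene Cyfip1, which does not measure the human transgene, had 33.5 ± 4.48 CPM in the 16 WT mice and 33.0 ± 3.66 CPM (SD) with CYFIP1 OE. CPM, read counts scaled to a common library size, was computed after TMM normalization. The punches differed in make-up: Slc17a7, the vesicular glutamate transporter of cortical and BLA neurons, ranged from 3.01 to 1110 CPM, and the BLA marker Rspo2 was under 10 CPM in 27 mice. Ppp1r1b, which encodes the striatal phosphoprotein DARPP-32, ranged from 111 to 2210 CPM with a median of 1040. In a bulk sample, fewer cells of a type and less RNA per cell cannot be told apart. A male CYFIP1 OE mouse of line 3 stood apart from the rest with a connectivity Z-score of -4.74. Some of the results that rest on it are given with and without it. The authors' filter, removal of samples with a connectivity Z-score under -2, was not applied in the main fits.

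The end of the coding sequence is given for the 6 receptors as a description, and binding of partners was not tested. The last 30 coding bases of the longest coding transcript are printed, from GENCODE transcripts of GRCm38, with the final 4 codons before the stop in capitals, since these encode the carboxyl end that meets PDZ scaffold proteins such as PICK1 on Grm7.
Grm5: gattacacgcagagtTCTTCATCGTTGtga
Grm2: gtggtagactcaacaACATCGTCGCTTtga
Grm3: gtcctggactccaccACCTCATCTCTGtga
Grm4: tacgtcacttacaccAACCATGCAATCtag
Grm7: acttggtacactatcCCACCAACAGTAtag
Grm8: tacatcagctacagtAATCATTCAATCtga

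Over the whole coding sequence, the 4 pairs from the same receptor group were 68.8% to 70.4% identical, and the 11 pairs from different groups 60.8% to 64.9%. The groups used below therefore also stand apart in their coding sequence. Homer binds a short proline-rich stretch, which was searched as a CCN codon, a second CCN codon, any 2 codons and then TTT or TTC, in frame on the coding strand and in the last 300 coding bases. Grm5 held it once, beginning 147 bases before the end of the coding sequence, and the other 5 genes did not hold these letters there. Of all coding genes, 298 of 21523 (1.38%) held it in a window of this length. The stretch is shown with the matched bases in capitals.
Grm5: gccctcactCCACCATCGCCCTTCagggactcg

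On GRCm38, Grm5 (ENSMUSG00000049583) spans chromosome 7 from 87584168 to 88134907 on the plus strand. Grm2 (ENSMUSG00000023192) lies on the minus strand of chromosome 9 from 106643095 to 106656082, and Grm3 (ENSMUSG00000003974) on the minus strand of chromosome 5 from 9485541 to 9725170. Grm4 (ENSMUSG00000063239) lies on the minus strand of chromosome 17 from 27422387 to 27521403. Grm7 (ENSMUSG00000056755) and Grm8 (ENSMUSG00000024211) share chromosome 6, at 110645581 to 111567230 on the plus strand and 27275119 to 28135178 on the minus strand. Grm7 spans 921650 bases and Grm2 12988 bases, the longest and shortest of the 6. The antisense gene Gm28111 overlaps Grm2 by 470 bases and had 0 to 6 reads per mouse, and reads of the overlap cannot be told apart if the counting did not use strand.

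Grm5, the postsynaptic receptor that raises calcium through phospholipase C, was by far the most abundant of the 6, with 285 ± 44.9 CPM (SD, n = 31) and a range of 192 to 367 CPM. QuantSeq counts a transcript about once whatever its length, so CPM was compared between genes without division by length, and differences between genes in the capture of their 3′ ends were not tested. Grm4, Grm7 and Grm3 followed at nearly equal levels. Grm4, a presynaptic receptor of axon terminals, had 29.8 ± 12.2 CPM (SD, n = 31), Grm7, a low-affinity presynaptic receptor, 27.9 ± 5.06 CPM, and Grm3, a receptor of neurons and astrocytes, 30.1 ± 10.4 CPM.

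Grm8, a further presynaptic receptor, was lower at 10.3 ± 3.49 CPM (SD, n = 31), and Grm2, the presynaptic autoreceptor of glutamatergic terminals, was lowest at 4.79 ± 3.64 CPM. In order of their medians (288, 28.3, 28.3, 27.7, 10.7 and 4.0 CPM) the genes ran Grm5, Grm4, Grm7, Grm3, Grm8 and Grm2, and neighbours in that order were compared. Grm5 exceeded Grm4 in 31 of 31 mice. Grm4 and Grm7 did not differ beyond their spread, with Grm4 higher in 16 of 31 mice (mean log2 ratio -0.03, SD 0.79, permutation test by sign, p = 0.853, adjusted p = 0.853). Nor did Grm7 and Grm3, each higher in 15 mice with 1 tie (mean log2 ratio -0.05, SD 0.58, permutation p = 0.656, adjusted p = 0.82). Grm3 exceeded Grm8 in 31 of 31 mice, and Grm8 exceeded Grm2 in 28 of 31 (mean log2 ratio 1.24, SD 1.0, permutation p = 2e-05, adjusted p = 3.33e-05). The p-values of the 5 neighbouring pairs were adjusted together, and log2 ratios had 0.5 CPM added.

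The spread between mice differed among the genes. Grm5 and Grm7 were the steadiest, with coefficients of variation of 15.7% and 18.2%. Grm4 varied by 40.9%, from 5.97 CPM in a WT mouse of line 3 to 50.1 CPM in a CYFIP1 OE mouse of the same line. Grm2 varied by 75.9% and 21.1-fold, from 0.733 to 15.4 CPM. Grm2 was counted with 5 to 96 reads per mouse, so part of its spread was counting error, whereas Grm5 had 1209 to 2817 reads.

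**Figure D1:**
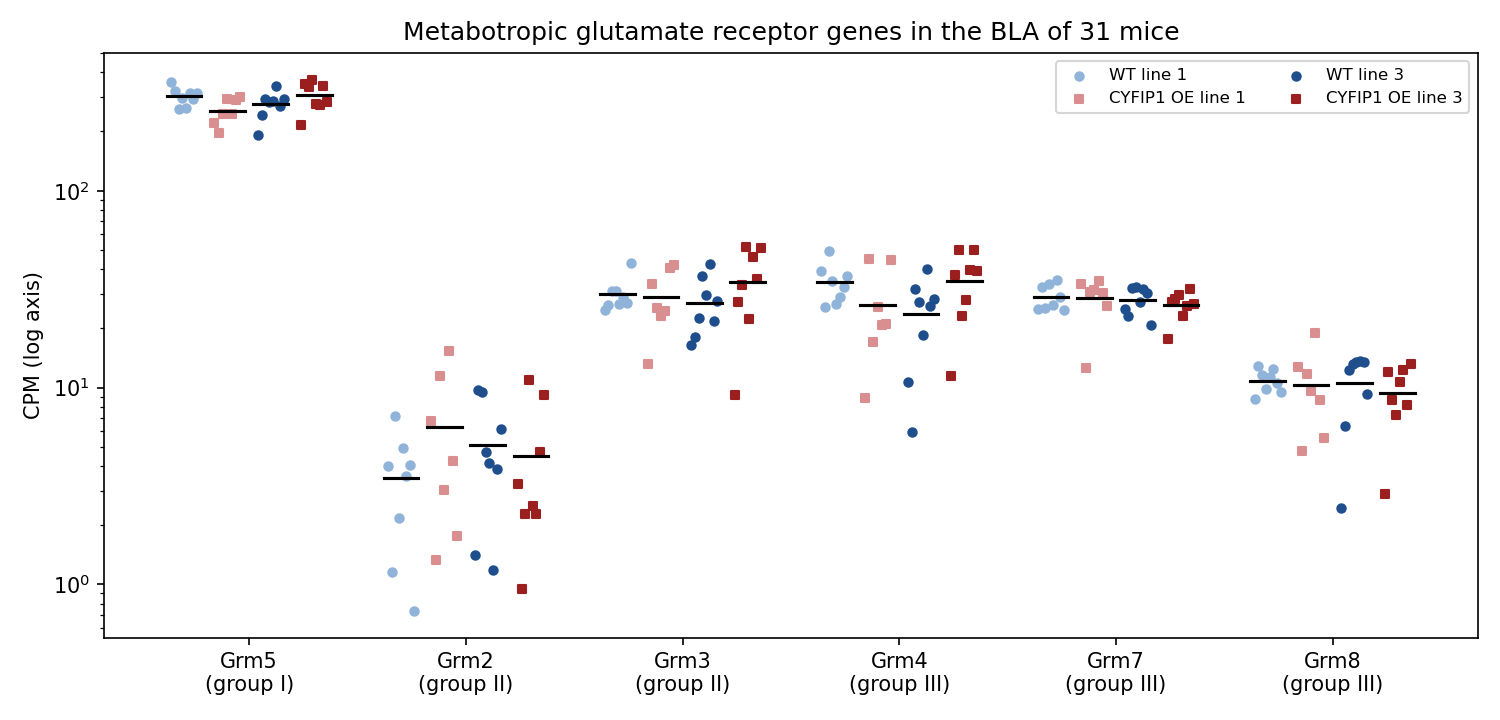
Level of each receptor gene in CPM (log axis), with 1 point per mouse, circles for WT, squares for CYFIP1 OE, and a bar at the mean of each group. Grm5 sat above 190 CPM in every mouse, Grm3, Grm4 and Grm7 overlapped around 30 CPM, and Grm2 spread over more than 10-fold.

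Group I held most of the receptor messages. Grm5 took 73.6% ± 3.65 of the summed CPM of the 6 genes (SD, n = 31), group III 17.5% ± 2.48 and group II 8.93% ± 2.22. Group I was the largest in 31 of 31 mice, and group III exceeded group II in 30 of 31, the exception being a CYFIP1 OE mouse of line 3. Grm6, a receptor of the retina, had 0 to 8 reads per mouse and was not tested.

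Within the groups the make-up varied more than the balance between them. Grm2 supplied 14.3% ± 10.3 of group II (SD, n = 31), from 1.68% to 38.7%, and the rest came from Grm3. Grm4 and Grm7 shared group III nearly equally, at 42.4% ± 12.3 and 42.5% ± 10.3, and Grm8 supplied 15.1% ± 4.62. In single mice the share of Grm4 in group III ran from 16.0% to 72.2%.

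The shares of the groups overlapped between genotypes in both lines. The group I share of line 1 was 73.6% ± 3.05 in 8 WT mice against 71.7% ± 3.29 (SD) in 7 CYFIP1 OE mice, and that of line 3 was 74.8% ± 2.71 against 74.0% ± 5.08 (SD, n = 8 each). For group II these were 8.19% ± 1.42 against 9.88% ± 2.16 in line 1, and 8.61% ± 1.14 against 9.16% ± 3.48 in line 3. For group III they were 18.2% ± 2.06 against 18.4% ± 2.10 in line 1, and 16.6% ± 2.59 against 16.8% ± 2.97 in line 3. In line 3 the CYFIP1 OE mice spread more widely than the WT mice in groups I and II, and the mouse of low connectivity held the highest share of group I, 83.0%, and the lowest of group II, 4.74%. Without it the difference of CYFIP1 OE minus WT in line 3 went from -0.812 to -2.09 percentage points for group I, from 0.552 to 1.18 for group II and from 0.26 to 0.909 for group III. In line 1 the difference for group I went from -1.91 to -0.478 percentage points without the mice aged 77 days. By the same exclusion it went from 1.69 to 1.32 for group II and from 0.224 to -0.842 for group III. No test was run on shares.

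**Figure D2:**
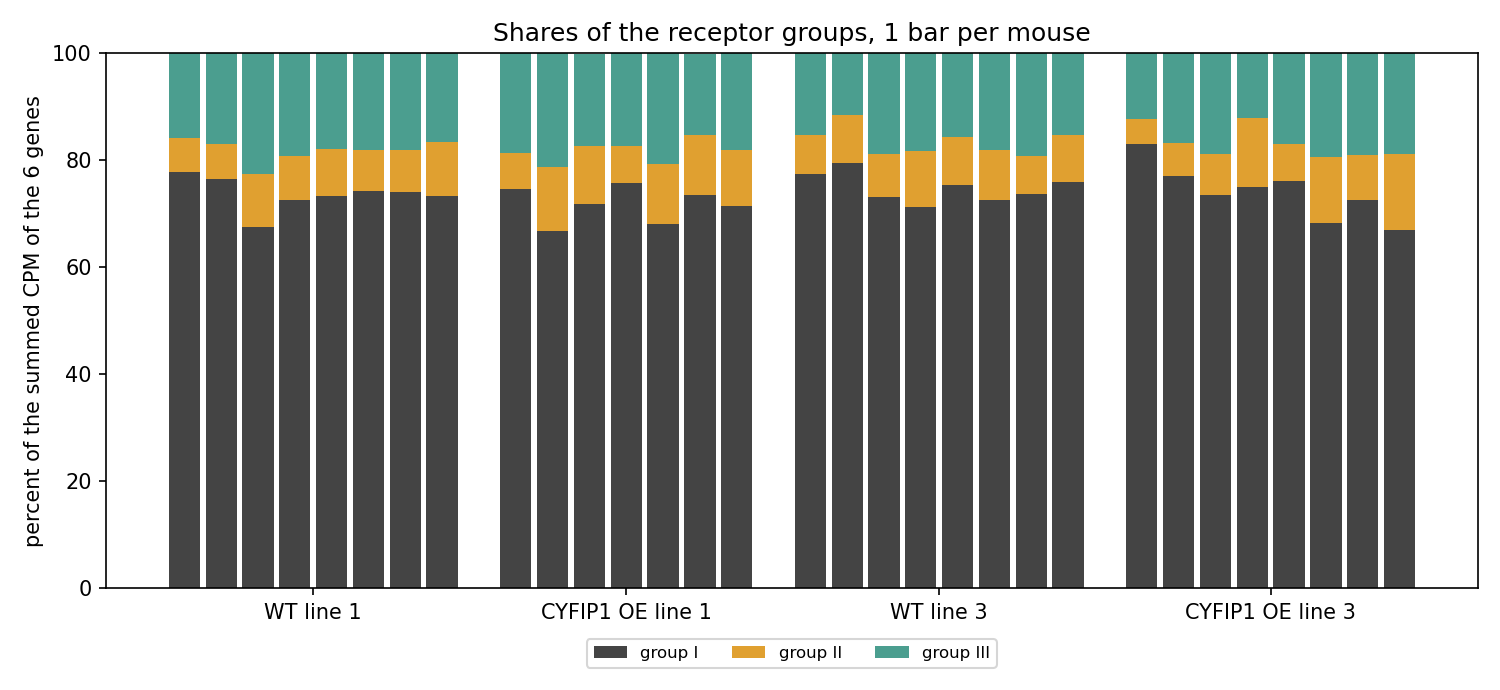
Percent of the summed CPM of the 6 genes held by group I (Grm5), group II (Grm2 and Grm3) and group III (Grm4, Grm7 and Grm8), with 1 stacked bar per mouse. Group I is the largest part of every bar, from 66.8% to 83.0%.

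The genotype difference was asked first over all 31 mice, with sex and line in the model. The authors' threshold was an unadjusted p under 0.005, and 0 of 6 genes passed it in edgeR's quasi-likelihood test, against 0.293% of all tested genes. At an unadjusted p under 0.05 the count was also 0 of 6, against 4.3% of all genes, and DESeq2 gave 0 at both thresholds. Their log2 fold changes ran from -0.12 for Grm8 to 0.32 for Grm2, with 3 of 6 above 0 against 48.7% of all genes. The value of Grm2 fell to 0.06 without CYFIP1 OE line 1 replicate 5. Grm5 averaged 288 ± 38.9 CPM in WT (SD, n = 16) against 282 ± 51.7 CPM with CYFIP1 OE (SD, n = 15), a log2 fold change of -0.04 (standard error 0.09, edgeR p = 0.662, adjusted p = 0.999). The median size of the change over the 6 genes, 0.11 on the log2 scale, was close to 0.12 over all tested genes.

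Within the lines, the fitted differences of Grm5 had opposite signs. In line 1 the WT mice had 259, 304 and 355 CPM (lowest, median and highest, n = 8) and the CYFIP1 OE mice 196, 246 and 301 CPM (n = 7). All 7 CYFIP1 OE mice of line 1 lay below the WT mean of 301 CPM and 4 lay below every WT mouse. The log2 fold change was -0.25 in the edgeR fit of all mice (n = 31, standard error 0.12, p = 0.0492, adjusted p = 1.0). It was -0.14 (edgeR, n = 27, p = 0.389) without the mice aged 77 days, and leaving out single mice gave -0.29 to -0.19, with the p above 0.05 in 19 of 31 cases. In line 3 the WT mice had 192, 283 and 340 CPM and the CYFIP1 OE mice 217, 310 and 367 CPM (n = 8 each). There, 6 of 8 CYFIP1 OE mice exceeded the mean of WT and the ranges overlapped (log2 fold change 0.15, standard error 0.12, adjusted p = 0.768 by edgeR).

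The fitted differences of Grm4 also had opposite signs, and neither reached an unadjusted p under 0.05 with all mice. In line 1 the WT mice had 25.7, 33.6 and 49.7 CPM and the CYFIP1 OE mice 8.88, 21.0 and 45.2 CPM, with 5 of 7 CYFIP1 OE mice below every WT mouse. The log2 fold change was -0.44 (edgeR, n = 31, standard error 0.32, p = 0.179, adjusted p = 1.0). In line 3 the WT mice had 5.97, 26.5 and 40.0 CPM and the CYFIP1 OE mice 11.5, 38.4 and 50.1 CPM. The ranges overlapped, with 6 of 8 CYFIP1 OE mice higher than the WT mean (edgeR, n = 31, log2 fold change 0.58, standard error 0.3, p = 0.0661, adjusted p = 0.65). Without the mouse of low connectivity this was 0.71 (edgeR, n = 30, p = 0.0211).

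The group II genes did not reach an unadjusted p under 0.05 in either line with all mice. Grm2 in line 1 had 0.733, 3.77 and 7.16 CPM in WT and 1.33, 4.26 and 15.4 CPM in CYFIP1 OE mice. There, 2 CYFIP1 OE mice, both aged 77 days, exceeded every WT mouse at 11.5 and 15.4 CPM. The other CYFIP1 OE mice of that age had 1.33 and 3.01 CPM, and those of 59 to 62 days 6.79, 4.26 and 1.77 CPM. The log2 fold change was 0.85 (standard error 0.53, adjusted p = 1.0 by edgeR), and leaving out single mice gave 0.36 to 1.08. In line 3 Grm2 had 1.18, 4.42 and 9.71 CPM in WT and 0.951, 2.86 and 10.9 CPM in CYFIP1 OE mice, groups that overlapped almost wholly. Grm3 in line 1 had 24.8, 27.9 and 42.8 CPM in WT and 13.2, 25.5 and 42.2 CPM in CYFIP1 OE mice (log2 fold change -0.05). In line 3 it had 16.4, 25.2 and 42.5 CPM in WT and 9.14, 34.5 and 51.6 CPM in CYFIP1 OE mice, with 3 of 8 above every WT mouse and 1 below them all (edgeR, n = 31, log2 fold change 0.37, standard error 0.25, p = 0.152, adjusted p = 0.737). The mouse below them all was the one of low connectivity, and without it the log2 fold change of Grm3 was 0.51 (edgeR, n = 30, p = 0.0248, adjusted p = 0.468).

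Grm7 and Grm8, the other group III receptors, did not reach an unadjusted edgeR p under 0.05 in either line with all mice. Grm7 had 24.8, 27.4 and 35.3 CPM in WT and 12.6, 30.5 and 34.7 CPM in CYFIP1 OE mice of line 1, and 20.9, 28.7 and 32.4 CPM against 17.7, 26.9 and 31.8 CPM in line 3. Its log2 fold changes were -0.02 and -0.08 (standard errors 0.16 and 0.15). Grm8 had 8.77, 10.9 and 12.9 CPM in WT and 4.77, 9.62 and 19.0 CPM in CYFIP1 OE mice of line 1, so that the CYFIP1 OE mice spread to both sides of the WT mice. In line 3 Grm8 had 2.44, 12.8 and 13.6 CPM in WT and 2.87, 9.68 and 13.2 CPM in CYFIP1 OE mice. Its log2 fold changes were -0.08 and -0.16 (standard errors 0.3 and 0.29).

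Counted together, 0 of 6 passed the unadjusted threshold of 0.005 in either line by edgeR or DESeq2, against 0.35% of all tested genes in line 1 and 0.93% in line 3. At an unadjusted p under 0.05 there was 1 gene in line 1, Grm5, against 3.96% of all genes, and 0 in line 3 against 7.93%. DESeq2 also gave 1 in line 1. Without the mouse of low connectivity there were 2 in line 3, Grm3 and Grm4, against 9.03% of all genes in that fit. By the same measure 0 of 6 differed by line, sex or the interaction of genotype and sex, against 3.31%, 4.62% and 6.39% of all genes.

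**Figure D3:**
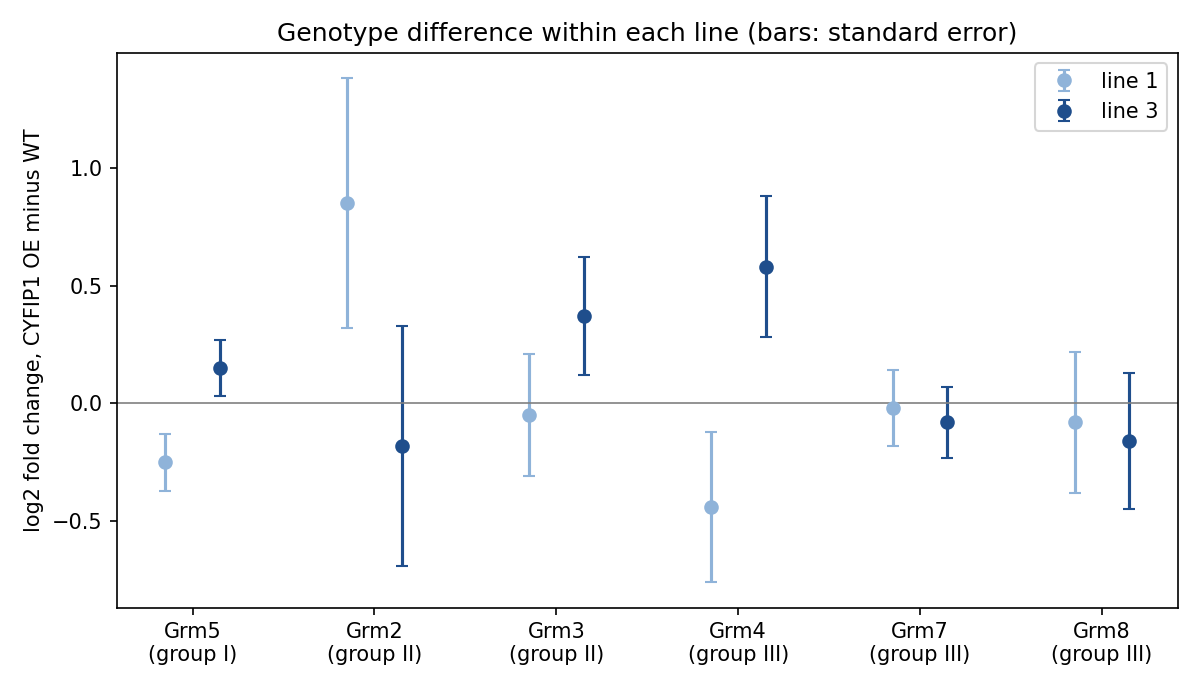
Genotype difference of each receptor gene within line 1 and line 3 as the log2 fold change of CYFIP1 OE minus WT, with bars for the standard error from edgeR. Grm5 and Grm4 lie below 0 in line 1 and above 0 in line 3, and the bars of Grm7 and Grm8 cross 0 in both lines.

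The difference between the lines was tested as an interaction. The genotype difference of Grm5 was larger in line 3 than in line 1 by 0.40 on the log2 scale (edgeR, n = 31, standard error 0.17, p = 0.0233, adjusted p = 0.569), and that of Grm4 by 1.02 (standard error 0.44, p = 0.028, adjusted p = 0.57). So 2 of 6 reached an unadjusted p under 0.05, against 8.1% of all tested genes, and 0 of 6 one under 0.005, against 0.843%, with the same counts by DESeq2. Neither gene passed the adjustment. Without the mouse of low connectivity the values were 0.46 for Grm5 (edgeR, n = 30, p = 0.00669) and 1.13 for Grm4 (p = 0.011). Without the mice aged 77 days they were 0.30 (edgeR, n = 27, p = 0.152) and 1.05 (p = 0.0614).

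Markers of striatal projection neurons moved with the same pattern. In line 1 the 7 markers that were tested had a median log2 fold change of -0.81, with 7 of 7 lower in CYFIP1 OE mice. In line 3 the median was 0.68 and 7 of 7 were higher. Within the lines, 0 of 7 had an unadjusted edgeR p under 0.05 in line 1 and 0 of 7 in line 3. Over all tested genes the shares were 3.96% and 7.93%. The interaction had an unadjusted edgeR p under 0.05 for 7 of 7 markers, against 8.1% of all tested genes, with a median of 1.5 on the log2 scale. Summed, they reached 2930 to 4220 CPM in WT against 695 to 4670 CPM in CYFIP1 OE mice of line 1, and 249 to 5320 CPM and 288 to 5920 CPM in line 3. Markers of BLA principal neurons moved the opposite way. In line 1 their median log2 fold change was 0.72, with 4 of 4 higher. Of these, 2 had an unadjusted edgeR p under 0.05, against 3.96% of all genes. In line 3 the median was -0.43, with 4 of 4 lower and 0 of 4 under 0.05. In the interaction it was -1.25, with 2 of 4 under 0.05, against 8.1%. The medians of the excitatory neuron list were 0.48, -0.31 and -0.81, with 0 of 6 under 0.05. In the interaction the inhibitory neuron and microglia lists each had 2 of 7 markers under 0.05, and the thalamic list 1 of 6. The oligodendrocyte list had 8 of 8 higher with a median of 0.2 and 0 under 0.05. Drd2, a defining gene of the striatal list, had a median of 0 CPM and was not tested. The mean level of the striatal markers was also added to the model, an alternative chosen after the data were seen. The interaction was then 0.13 for Grm4 (edgeR, n = 31, p = 0.615) and 0.16 for Grm5 (p = 0.293). That level itself went with Grm4 and Grm5 over mice (Pearson's r = 0.91 and 0.73, sex and line removed). The part of punch make-up in the difference between the lines was not tested.

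Across mice, the receptor genes were then set against 10 lists of cell type markers, with sex and line removed, and 10 of 60 pairs had an adjusted permutation p under 0.05, 7 positive and 3 negative. Grm4 followed the striatal projection neuron list most closely, with a Pearson's r of 0.91 (permutation p = 1e-05, or 0.0003 once adjusted). Spearman's rho was 0.85 (permutation p = 1e-05). A p of 1e-05 is the floor of 100000 resamples. The r was 0.87 in line 1, 0.94 in line 3, and 0.87 when the 2 mice farthest from the median of the markers were left out. The WT mouse with the lowest Grm4, 5.97 CPM, was also the lowest in these markers. Grm4 also followed the microglia list (r = 0.60, adjusted permutation p = 0.00412) and the inhibitory neuron list (r = 0.60, adjusted permutation p = 0.00411). Its r with the BLA principal neuron list was -0.51 (adjusted permutation p = 0.022). Without the 2 farthest mice these were 0.47, 0.36 and -0.55.

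Grm3 and Grm5 followed the same list. Grm3 had an r of 0.74 (adjusted permutation p = 0.00045) and a rho of 0.64 (adjusted permutation p = 0.0013), with 0.67 in line 1, 0.76 in line 3 and 0.65 without the 2 farthest mice. Grm5 had an r of 0.73 (adjusted permutation p = 0.00045) and a rho of 0.78 (adjusted permutation p = 0.0003), with 0.64 in line 1, 0.85 in line 3 and 0.73 without the 2 farthest mice. Grm3 did not follow the astrocyte list (r = -0.16, permutation p = 0.379, rho = -0.11, permutation p = 0.551). The summed astrocyte markers ranged only from 2390 to 3030 CPM, against 249 to 5920 CPM for the striatal markers. A source of Grm3 in astrocytes was not tested.

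Grm2 had an r of -0.37 with the striatal list (adjusted permutation p = 0.135) and a rho of -0.37 (adjusted permutation p = 0.171), and its closest relation was with another list. Its r with the oligodendrocyte list was -0.72 (adjusted permutation p = 0.0003) and its rho -0.68 (adjusted permutation p = 0.00045), with -0.75 in line 1, -0.69 in line 3 and -0.65 without the 2 farthest mice. With BLA principal neuron markers the r of Grm2 was 0.62 (adjusted permutation p = 0.00192) and its rho 0.57 (adjusted permutation p = 0.00795), with 0.73 and 0.52 in lines 1 and 3 and 0.47 without the 2 farthest mice. The r of Grm5 with the same list was -0.61 (adjusted permutation p = 0.0026) and its rho -0.73 (adjusted permutation p = 0.00045), with -0.64 and -0.55 in lines 1 and 3 and -0.59 without the 2 farthest mice. With the excitatory neuron list the r of Grm2 was 0.57 (adjusted permutation p = 0.0046), and 0.46 without the 2 farthest mice. Grm7 and Grm8 were in none of the 10 pairs. Their r with the striatal list was -0.29 in line 1 and 0.65 in line 3 for Grm7, and -0.51 and 0.64 for Grm8. None of these had an adjusted permutation p under 0.05. Receptor and marker levels come from the same libraries and punches, and the part of cell make-up in the levels of the receptor genes was not tested.

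**Figure D4:**
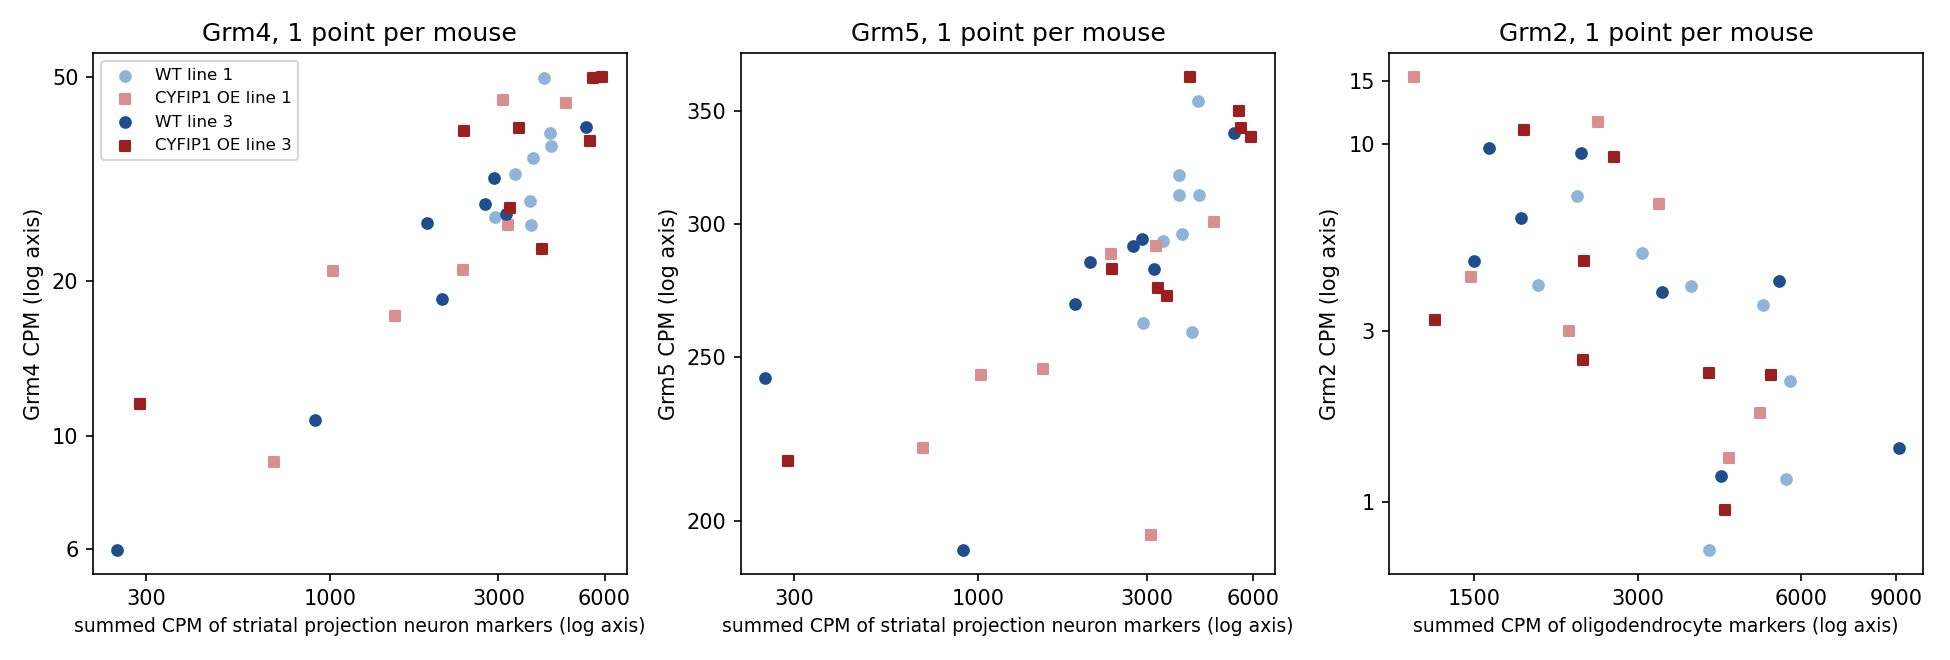
Grm4 and Grm5 in CPM against the summed CPM of striatal projection neuron markers, and Grm2 against the summed CPM of oligodendrocyte markers, with 1 point per mouse and log axes. Grm4 and Grm5 are higher where striatal markers are higher (r = 0.91 and 0.73 on log2 levels with sex and line removed), and Grm2 is lower where oligodendrocyte markers are higher (r = -0.72).

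Among themselves, the receptor genes were correlated both within and between receptor groups, and 4 of the 15 pairs were within a group. Of the 15 pairs, the highest r was between Grm3 of group II and Grm4 of group III, 0.68 (permutation p = 4e-05, adjusted p = 0.0006, rho 0.58, permutation p = 0.00063), with 0.69 in line 1, 0.67 in line 3 and 0.59 without the 2 farthest mice. Next came Grm7 and Grm8, both of group III, at 0.62 (permutation p = 0.00103, adjusted p = 0.00502, rho 0.53, permutation p = 0.00258), with 0.74 and 0.59 in lines 1 and 3 and 0.40 without the 2 farthest mice. Grm2 and Grm3, the members of group II, had an r of -0.09 (permutation p = 0.615, rho -0.17, permutation p = 0.353). Grm4 had an r of 0.01 with Grm7 and 0.27 with Grm8 (adjusted permutation p = 0.955 and 0.2). The r of Grm5 was 0.56 with Grm4, 0.55 with Grm3, 0.52 with Grm7 and 0.43 with Grm8. Their adjusted permutation p was 0.00502, 0.00502, 0.01 and 0.0403, and their rho 0.46, 0.52, 0.31 and 0.04. Without the mouse of low connectivity the r of Grm3 and Grm4 was 0.66 and that of Grm7 and Grm8 0.52.

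The genes most like each receptor over the 31 mice, by Pearson's r of log2 CPM with sex and line regressed out, are given as a description. For Grm4 they were Rasd2 (0.95), Adora2a (0.94) and Cpne5 (0.93), and Adora2a is itself on the striatal marker list. For Grm5 they were Anks1b (0.90), Gucy1b1 (0.90) and Ppp3ca (0.89), and for Grm3 Nrxn3 (0.89), Ddx6 (0.84) and Fam110b (0.82). The values were lower for Grm2, with Rasal1 (0.77), Pter (0.77) and Enc1 (0.76), for Grm7, with Nudt11 (0.79), Mospd2 (0.78) and Cul3 (0.76), and for Grm8, with Necab1 (0.80), Gcfc2 (0.76) and Kcnh3 (0.74).

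The mouse of low connectivity, a CYFIP1 OE mouse of line 3, had the lowest Grm3 of all 31 mice at 9.14 CPM, against 22.2 to 51.6 CPM in the other 7 mice of its group. It was second lowest for Grm7 (17.7 CPM) and Grm8 (2.87 CPM) and at rank 3 from the lowest for Grm5 (217 CPM). The same mouse had the highest excitatory neuron markers (3710 CPM summed) and microglia markers (330 CPM) of the 31 mice. It was lowest for inhibitory neuron (333 CPM) and oligodendrocyte precursor markers (62.4 CPM). For striatal (288 CPM) and oligodendrocyte markers (1270 CPM) it was second lowest.

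The partners of the receptors were examined as a list of 73 genes found in the data, 71 of them tested. The list also held genes of glutamate uptake and release and other receptors of the family. Its genes are called partner genes below for short. Over all mice 0 of 71 passed the unadjusted threshold of 0.005 by edgeR or DESeq2, against 0.293% of all genes, and 2 of 71 reached 0.05, against 4.3% of all genes, so that the share was no larger than the background. These were Rgs7, which speeds the shut-off of Gi/o signalling (41.0 ± 6.42 CPM in WT and 48.6 ± 8.79 CPM with CYFIP1 OE, SD), and Ncdn, a neurite protein that binds Grm5 (190 ± 36.6 and 240 ± 117 CPM). The log2 fold change of Rgs7 was 0.24 (edgeR, n = 31, standard error 0.09, p = 0.0139, adjusted p = 0.999), and 13 of 15 CYFIP1 OE mice exceeded the mean of WT. That of Ncdn was 0.34 (edgeR, n = 31, standard error 0.14, p = 0.0247, adjusted p = 0.999), with 12 of 15 above it and a highest value of 638 CPM. Without the mouse of low connectivity Rgs7 had 0.24 (edgeR, n = 30, p = 0.0135, adjusted p = 1.0) and Ncdn 0.17 (p = 0.0961), so that 1 of the 2 was left under 0.05. None of the 11 genes of translation control downstream of group I, Fmr1, Eif4e and Mtor among them, had an unadjusted p under 0.05 over all mice, within either line or in the interaction.

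Within the lines, 7 of 71 partner genes reached an unadjusted edgeR p of 0.05 in line 1 and 7 in line 3, and 14 in the interaction, against 3.96%, 7.93% and 8.1% of all genes. The interaction had 3 of 71 under 0.005, against 0.843% of all genes. No gene passed the adjustment, the smallest adjusted p being 0.514. Without the mouse of low connectivity the interaction count under 0.005 was 9 in place of 3, against 1.96% of all genes in that fit, and the line 3 count under 0.05 was 14 in place of 7, against 9.03%. The Homer genes, whose proteins tether group I receptors, reached no unadjusted p under 0.05 over all mice, within either line or in the interaction. Homer1 had 120 ± 30.4 CPM in WT against 128 ± 44.9 CPM with CYFIP1 OE (SD), Homer2 47.8 ± 17.4 and 50.9 ± 23.3 CPM, and Homer3 8.32 ± 7.33 and 9.55 ± 10.5 CPM. Their log2 fold changes over all mice were 0.07, 0.09 and 0.12. Within line 1 and line 3 they were -0.17 and 0.29 for Homer1, 0.38 and -0.18 for Homer2, and 0.03 and 0.20 for Homer3.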

How the data were processed

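The authors prepared libraries with QuantSeq 3′ Fwd, mapped reads with STAR to GRCm38 and quantified genes with Salmon; they deposited expected counts per gene for each mouse, which are estimated counts without normalization. Whether counting used strand is not given in the sources used here. GENCODE M21 named 48349 of 48709 identifiers.

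Counts were rounded, and a gene was kept if 20% of mice or more had 10 reads or more. The genotype tests used edgeR 4.0.16 under R 4.3.3 (TMM, quasi-likelihood F test, two-sided, Benjamini-Hochberg over all tested genes), with sex and line, or with sex and 4 line by genotype groups for the lines and their interaction. The authors' own model was DESeq2 with sequencing components as covariates, which were not used here. They also removed samples with a connectivity Z-score under -2, whereas the main fits here kept all 31 mice. Permutation tests drew 100000 resamples and were two-sided, and log2 CPM had a prior count of 2. Alternatives used DESeq2 1.42.0, sva 3.50.0, other filters and subsets of mice. Scores and figures used numpy 2.4.6, pandas 2.3.3 and matplotlib 3.10.9, and coding sequences were aligned with biopython 1.88.

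The members and lists were chosen with earlier results of these data known. Genes named for their values were the members, Grm6, the partner genes with an unadjusted p under 0.05 over all mice, the Homer genes, and the 3 genes most correlated with each member. Among the correlated genes predicted and Riken-type symbols were left out. Marker genes, Cyfip1, the antisense gene at Grm2 and 3 translation genes are named as checks or examples, and 1 item of the rule is not reported here. The steps were tested on simulated data, with genes called at an adjusted p under 0.05. For the genotype test over 31 mice, 126 of 200 genes with a true log2 fold change of 1 were recovered among 17428, with 10 false calls. For the test within line 3, 92 of 200 were recovered, with 8 false calls. Smaller changes were not simulated. Mice are separate animals, but littermates cannot be told from the labels.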

Additional observations from a re-analysis of the deposited data

Results flagged for a closer look

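A mouse lying far from the rest of its group was looked for in 36 sets of 7 or 8 mice (6 genes and 3 group shares in 4 groups), and 2 values were found, where chance alone gives about 1 in 20 sets. Grm3 was 42.8 CPM in 1 WT mouse of line 1, with the next highest of the 8 at 31.1 CPM. Grm7 was 12.6 CPM in 1 CYFIP1 OE mouse of line 1 aged 77 days, at the bottom of a group of 7 whose gap to the next mouse took 0.606 of its range.

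The genotype difference differed between the lines at an unadjusted p under 0.05 for Grm5, by 0.40 on the log2 scale (adjusted p = 0.569 by edgeR), and for Grm4, by 1.02 (adjusted p = 0.57). Both fail the adjustment. In line 1, 7 of 7 CYFIP1 OE mice lay below the WT mean for Grm5 and 5 of 7 for Grm4, and in line 3, 6 of 8 lay above it for each.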

How the results depend on the processing

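No paired analysis was possible because replicate numbers were given in accession order and pair no mice; a block was fitted instead on the sample name groups that hold both genotypes. Of 956 recomputed single-gene values, 916 kept their direction, 40 turned and 0 passed an unadjusted p of 0.005. Over 31 mice the log2 fold change turned for Grm5 with age as a covariate (0.05), without the mice aged 77 days (0.05) and with name groups as a block (0.03), for Grm2 without those mice (-0.04), for Grm3 with name groups (-0.27) and for Grm4 with 5 surrogate variables (-0.08) or name groups (-0.05). In line 1 surrogate variables turned Grm2 (-0.33) and Grm3 (0.17), leaving out the 77-day mice turned Grm3 (0.11) and Grm7 (0.04), and the striatal marker level, added after the data were seen, turned Grm3 (0.26), Grm4 (0.07), Grm7 (0.05) and Grm8 (0.11). In line 3 surrogate variables turned Grm2 (0.64), Grm7 (0.03) and Grm8 (0.11), and the striatal level Grm2 (0.18). In the interaction surrogate variables turned Grm2 (0.97), Grm7 (0.08) and Grm8 (0.39), leaving out the mouse of low connectivity turned Grm7 (0.03) and Grm8 (0.07), leaving out the 77-day mice turned Grm8 (0.13), and the striatal level turned Grm3 (-0.21). The causes were not tested.

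Receptor genes with an unadjusted p under 0.05 in line 1 went from 1 to 0 with no filter, without the 77-day mice and with the striatal level. In line 3 they went from 0 to 1 with no filter and 2 without the mouse of low connectivity, and in the interaction from 2 to 0 with surrogate variables, without the 77-day mice and with the striatal level. Partner genes under 0.005 went from 0 to 3 with surrogate variables and 1 with name groups over 31 mice, to 2 and 1 with surrogate variables and the striatal level in line 1, and to 1 and 2 with surrogate variables and without the mouse of low connectivity in line 3. In the interaction they went from 3 to 0 with surrogate variables or the striatal level and to 9 without the mouse of low connectivity. Partner genes under 0.05 went from 2 to 7 with surrogate variables, 1 without the mouse of low connectivity and 4 with name groups over 31 mice. In line 1 they went from 7 to 11 with no filter or surrogate variables, 3 without the 77-day mice and 1 with the striatal level, in line 3 from 7 to 14 without the mouse of low connectivity, and in the interaction from 14 to 2 with surrogate variables, 6 without the 77-day mice and 4 with the striatal level. Receptor and marker pairs under an adjusted p of 0.05 went from 10 to 3 within line 1 and 5 within line 3.

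Leaving out 1 mouse at a time gave log2 fold changes of -0.01 to 0.20 for Grm4 and -0.08 to 0.00396 for Grm7 over 31 mice, of -0.18 to 0.08 for Grm3, -0.09 to 0.10 for Grm7 and -0.31 to 0.04 for Grm8 in line 1, of -0.60 to 0.06 for Grm2 in line 3, and of -0.18 to 0.03 for Grm7 and -0.23 to 0.15 for Grm8 in the interaction. Receptor genes under 0.05 ran from 0 to 1 in line 1, 0 to 2 in line 3 and 1 to 2 in the interaction, where the count was 1 without CYFIP1 OE line 1 replicate 1 or 3 or CYFIP1 OE line 3 replicate 3. In line 3 it was 1 without WT replicate 3 or 6 or CYFIP1 OE replicate 4. Partner genes under 0.005 ran from 0 to 1 over 31 mice and in line 1, 0 to 2 in line 3 and 1 to 9 in the interaction, and under 0.05 from 1 to 3, 2 to 14, 5 to 14 and 10 to 18. In line 1 the 2 came without CYFIP1 OE replicate 1 or 5 and the 14 without replicate 7. Grm2 ran from 0.06 to 0.46 over 31 mice and from 0.36 to 1.08 in line 1. The filter of 10 reads in every mouse left no value for Grm2, whose lowest count was 5 reads, so depth limits Grm2 most.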
